A study of Homo sapiens with 12 samples.

Results

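The 10 functional alpha-like and beta-like globin genes were followed from human pluripotent cells to blood progenitors. They were taken by symbol from a deposited table of gene expression, which listed 10 of 10 of them, each on a single line, among 56593 distinct gene symbols. The alpha-like genes were HBZ, HBA2, HBA1, HBM and HBQ1, and the beta-like genes were HBE1, HBG2, HBG1, HBD and HBB. The 12 RNA-seq libraries came from 4 populations of 3 libraries each. These were undifferentiated H1 cells (a human embryonic stem cell line), APLNR+ mesoderm cells sorted on day 2 of hematopoietic differentiation, CD31+CD34+ hemogenic endothelial progenitors (HEPs) from day 5, and CD43+ hematopoietic progenitor cells (HPCs) from day 8. All 4 populations derive from the H1 line with no genetic change named in the labels. Differentiation began with activin A and BMP4 in a defined medium, which was replaced on day 2 by medium with VEGF and bFGF. The labels number the libraries of a population 1 to 3 but do not say whether they came from separate cultures, so that p-values here measure the spread between libraries, which may be technical. All values come from 1 cell line in bulk RNA, where fewer globin-expressing cells and less globin RNA per cell cannot be told apart.

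Hemoglobin is a tetramer of alpha-like and beta-like chains, each holding a heme group, and red cells need both kinds of chain in balance. The alpha-like genes lie in a cluster on chromosome 16 in the order HBZ, HBM, HBA2, HBA1 and HBQ1, and the beta-like genes on chromosome 11 in the order HBE1, HBG2, HBG1, HBD and HBB. The order along each cluster broadly follows the order of use in development. HBZ and HBE1 encode the zeta and epsilon chains of the first red cells, which arise in the yolk sac. HBG2 and HBG1 encode the gamma chains of fetal hemoglobin, HBA2 and HBA1 encode identical alpha chains used in the fetus and the adult, and HBB and HBD encode the adult beta chain and the minor adult delta chain. HBM and HBQ1 encode the mu and theta chains, whose role in hemoglobin is unclear. A distant enhancer region upstream of each cluster, bound by erythroid factors such as GATA1, TAL1 and NFE2, drives whichever genes are in use.

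Sequence before the transcription start was at hand for 2 of the 10 members, HBD on chromosome 11 and HBM on chromosome 16. They are shown because these genes belong to different clusters, HBD among the 3 most abundant members and HBM the least abundant, and both rose in CD43+ cells. Each line holds the 250 bases before the start, 5′ to 3′ on the strand of the gene, from RefSeq on GRCh38.p14. Capitals mark matches on either strand to CACCC, found in sites of KLF1, to GATAA, the core that GATA factors prefer, to the CCAAT box, and to TATAA or its variant ATAAA, the last of which can overlap each other. A match on the opposite strand appears as its reverse complement.
HBD, chr11:5234484-5234733, minus strand: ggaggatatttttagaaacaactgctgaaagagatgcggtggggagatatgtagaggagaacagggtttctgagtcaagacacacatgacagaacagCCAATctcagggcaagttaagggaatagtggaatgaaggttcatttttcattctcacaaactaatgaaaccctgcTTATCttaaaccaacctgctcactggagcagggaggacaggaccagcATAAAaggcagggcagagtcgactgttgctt
HBM, chr16:165728-165977, plus strand: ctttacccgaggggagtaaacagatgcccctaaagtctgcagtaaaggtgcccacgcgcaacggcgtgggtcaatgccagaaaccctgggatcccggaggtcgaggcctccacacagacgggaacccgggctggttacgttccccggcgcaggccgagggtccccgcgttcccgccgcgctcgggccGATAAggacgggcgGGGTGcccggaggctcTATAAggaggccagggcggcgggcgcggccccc

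The HBD sequence held CCAAT, a match to GATAA on the opposite strand and ATAAA, and none of these letters matched CACCC or TATAA. The HBM sequence held GATAA, a match to CACCC on the opposite strand and TATAA, and did not match CCAAT or ATAAA. A match of 5 letters is a description and not a site. Of 35116 RefSeq stretches of the same length, 20.4% held GATAA, 54.7% CACCC, 32.0% CCAAT, 18.9% TATAA and 32.7% ATAAA on either strand.

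Values are FPKM, fragments scaled to the length of the transcript and to the mapped fragments of the library, a level per length that allows genes to be compared within a library. The number of reads in each library was not given. Relative depth, estimated from the lowest values, ranged from 0.555 in CD31+CD34+ replicate 1 to 1.27 in CD31+CD34+ replicate 2, taking CD43+ replicate 3 as 1. Replicate 1 was the shallowest library in each of the 4 populations. A value of exactly 0 need not mean absence, since EEF1A1, a translation factor gene used by all cells, was listed at 0 in 6 of the 12 libraries and between 1839 and 4616 FPKM in the others. The sorting markers rose at the stage of their label. APLNR averaged 383 FPKM in APLNR+ cells and 0.528 in H1 cells, and CD34 averaged 47.7 in CD31+CD34+ cells and 0.981 in APLNR+ cells. SPN, which encodes CD43, averaged 75.5 in CD43+ cells and 3.70 in CD31+CD34+ cells. APLNR was not called between APLNR+ and CD31+CD34+ cells (adjusted p = 0.531, limma on log2(FPKM + 1)). PECAM1, which encodes CD31, was higher in CD43+ than in CD31+CD34+ cells, by 0.78 on that scale (adjusted p = 0.000125, limma).

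The globin genes were expressed in CD43+ cells and stayed near 0 before. For 10 of 10 members, the 3 CD43+ libraries lay above the other 9 libraries without overlap. The share of all genes that met this criterion was not computed. A looser one, every CD43+ library above every CD31+CD34+ library, was met by 28.0% of the 14840 genes tested. Outside CD43+ cells, 46 of 90 member values were 0, 11 reached 1 FPKM and the highest was 3.78. The beta-like transcripts of CD43+ cells were mostly of embryonic and fetal type, led by the gamma gene HBG2 and the epsilon gene HBE1. The adult delta gene HBD came next, and the adult beta gene HBB was far lower. Among the alpha-like genes, HBA2 and HBQ1 were highest and the embryonic HBZ was lower. Between CD31+CD34+ and CD43+ cells, 10 of 10 members were raised by 2-fold or more with an adjusted p below 0.05 (limma on log2(FPKM + 1), Benjamini-Hochberg adjustment), where 5.58% of all genes tested were raised. Of these 10, 7 reached the filter of 1 FPKM in 3 libraries through the CD43+ libraries alone and so had to differ. They were HBA1, HBA2, HBZ, HBM, HBB, HBD and HBG1. HBE1 reached 1 FPKM in 1 library outside CD43+ cells, so it too needed the CD43+ libraries to pass the filter. For the 7 genes, for HBA1 and HBA2 summed and for HBE1, adjusted p-values against CD43+ cells are a description alone. Log2 changes below were taken after adding 1 FPKM to each value, so that for low genes they are smaller than the true change.

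**Figure D1:**
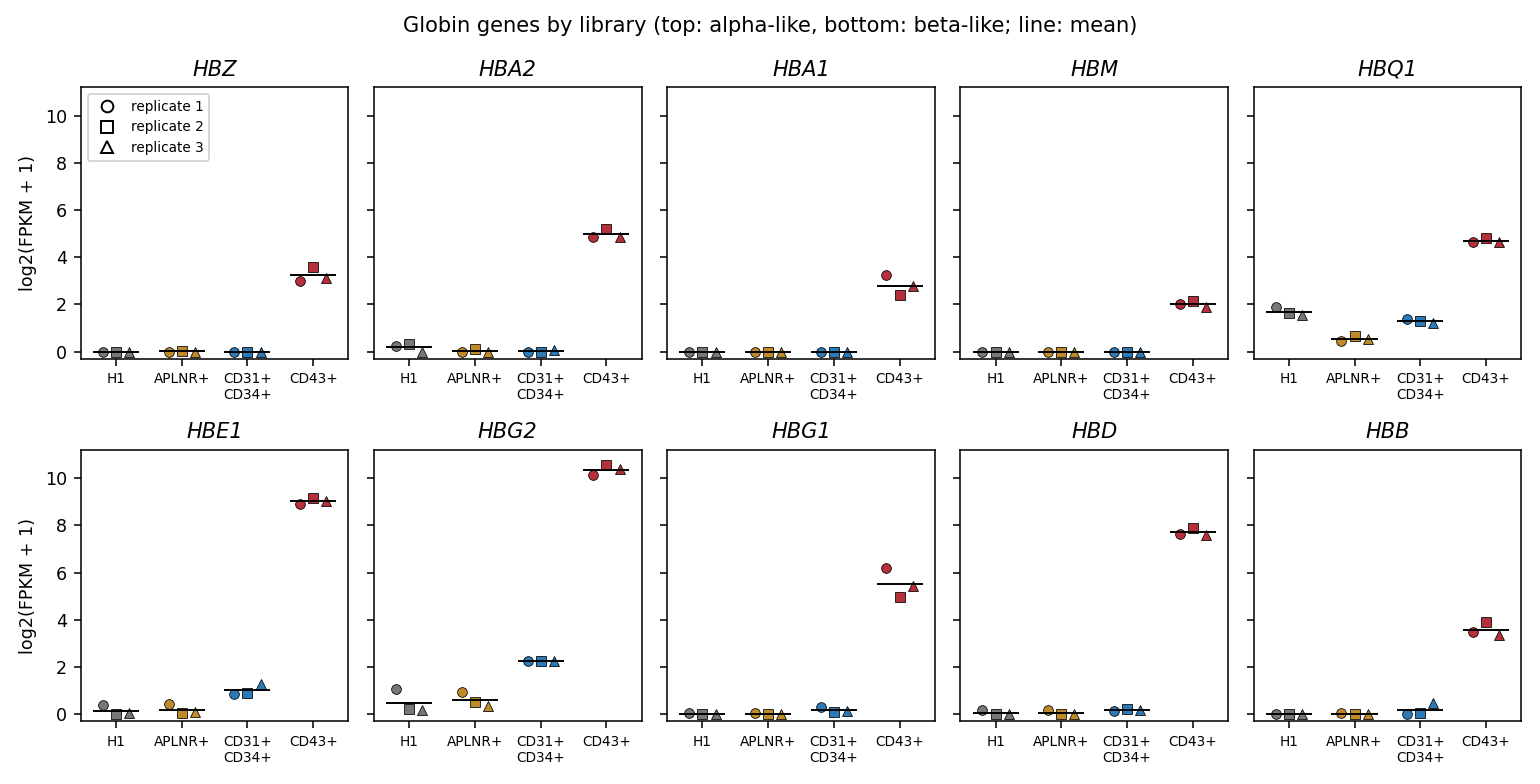
Level of each globin gene as log2(FPKM + 1) in the 12 libraries, with alpha-like genes in the top row and beta-like genes in the bottom row; point shapes are replicate numbers and lines are means of the 3 libraries of a population. In every panel the 3 CD43+ libraries stand above the other 9, and HBQ1 is the alpha-like gene with values above 1 FPKM in H1 and CD31+CD34+ cells.

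HBG2, a gamma gene of fetal hemoglobin, was the most abundant globin transcript. In CD43+ cells it measured 1136, 1509.9 and 1326 FPKM in replicates 1, 2 and 3, which placed it between rank 63 and rank 75 of 50884 symbols outside small RNA genes. In CD31+CD34+ cells it measured 3.73, 3.78 and 3.76 FPKM. The CD31+CD34+ libraries thus agreed closely with each other at 0.284% of the CD43+ mean, a 352-fold difference between the means. On the log2 scale HBG2 rose by 8.11 ± 0.22 (SE, adjusted p = 9.63e-11, n = 3 per population, limma).

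HBG1, the neighbouring gamma gene, was far lower than HBG2. It measured 72.3, 30.03 and 42.7 FPKM in CD43+ replicates 1, 2 and 3, against 0.245, 0.0630 and 0.0890 FPKM in CD31+CD34+ cells. Its log2 change was 5.36 ± 0.23 (SE, adjusted p = 2.84e-09, limma). HBG1 had the widest spread of the 10 members among CD43+ libraries relative to its mean (SD of 44.8% of the mean), and its lowest value fell in replicate 2, where HBG2 was highest. The ratio of HBG2 to HBG1 was therefore 15.7, 50.3 and 31.0 in the 3 CD43+ libraries.

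The split between these genes is uncertain, since their transcripts are nearly identical. In GENCODE release 29, 47.6% of the 50-base stretches in HBG2 transcripts also occur in HBG1 transcripts, and 24.1% of those in HBG1, which has longer annotated transcripts, occur in HBG2. Both also overlap annotated read-through transcripts that no line of the table names. AC104389.5 shares 48.2% of the stretches of HBG2 and 28.7% of those of HBG1, and AC104389.4 shares 28.97% and 13.04%. The sum of the gamma genes measured 1209, 1540 and 1368 FPKM in CD43+ cells. It can still depend on the split, since FPKM divides by transcript length and the annotated lengths differ. Summed before the fit, the gamma genes rose by 8.13 ± 0.22 on the log2 scale from CD31+CD34+ cells (SE, adjusted p = 1.02e-10, limma).

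HBE1, the embryonic epsilon gene, was the second most abundant globin transcript in all CD43+ libraries. It measured 482, 564 and 530.2 FPKM in CD43+ replicates 1, 2 and 3, between rank 147 and rank 154. In CD31+CD34+ cells it measured 0.815, 0.867 and 1.43 FPKM, so that the means differed 507-fold. The log2 change was 8.02 ± 0.15 (SE, adjusted p = 5.96e-12, limma). HBG2 exceeded HBE1 by 2.36, 2.68 and 2.50 times in the 3 CD43+ libraries. Of the 50-base stretches in HBE1 transcripts, 72.7% also occur in an annotated read-through transcript, AC104389.4, that joins it to other genes of the cluster, and no line of the table carries that name.

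HBD, the delta gene whose promoter is shown above, was the third globin transcript in all CD43+ libraries. It measured 200.2, 233 and 191 FPKM in CD43+ replicates 1, 2 and 3. In CD31+CD34+ cells it measured 0.109, 0.181 and 0.144 FPKM, about 0.0696% of the CD43+ mean. The log2 change was 7.51 ± 0.11 (SE, adjusted p = 1.08e-12, limma).

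HBB, the adult beta gene, was the lowest of the beta-like genes in CD43+ cells. It measured 10.2, 13.8 and 9.24 FPKM there, and was listed at 0, 0.0233 and 0.377 FPKM in CD31+CD34+ replicates 1, 2 and 3. Its log2 change was 3.41 ± 0.15 (SE, adjusted p = 2.92e-09, limma). HBD exceeded HBB by 19.6, 16.9 and 20.7 times in the 3 CD43+ libraries, whereas in adult red cells the delta chain is the minor one. HBD and HBB share few long stretches, 1.58% of those in HBD and 1.54% of those in HBB, although the HBD gene model overlaps that of the pseudogene HBBP1 on the same strand. HBBP1, which lies between HBG1 and HBD, measured 21.3, 27.9 and 27.8 FPKM in CD43+ cells and at most 0.0940 FPKM in the other 9 libraries.

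The alpha-like genes were lower as a sum in all CD43+ libraries, although HBA2 and HBQ1 lay above the beta-like HBB in each of them. HBA2, the leading alpha gene, measured 28.2, 35.9 and 28.3 FPKM in CD43+ replicates 1, 2 and 3. It was listed at 0 in CD31+CD34+ replicates 1 and 2 and at 0.0373 FPKM in replicate 3. The log2 change was 4.96 ± 0.11 (SE, adjusted p = 2.05e-11, limma). HBA1, which encodes the same protein, measured 8.35, 4.32 and 5.77 FPKM in CD43+ cells and was listed at 0 in all 9 other libraries, so no fold is given (adjusted p = 2.22e-08, limma).

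HBA2 and HBA1 showed the same pattern as the gamma genes: the gene with the higher mean peaked in CD43+ replicate 2, and its near-identical neighbour was lowest there. The ratio of HBA2 to HBA1 was 3.38, 8.30 and 4.90. Their transcripts share 81.4% of the 50-base stretches of HBA2 and 80.7% of those of HBA1, so the split between them is uncertain. The sum of both genes measured 36.6, 40.2 and 34.03 FPKM and rose by 5.22 ± 0.10 on the log2 scale from CD31+CD34+ cells (SE, adjusted p = 5.36e-12, limma).

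HBQ1, the theta gene at the far end of the cluster, was the alpha-like gene with measurable levels before the CD43+ stage. It measured 24.3, 27.1 and 23.7 FPKM in CD43+ cells and 1.63, 1.45 and 1.34 FPKM in CD31+CD34+ cells, a 17.0-fold difference of means. Its log2 change was 3.39 ± 0.11 (SE, adjusted p = 4.43e-10, limma). No 50-base stretch of its transcript occurs in another annotated gene, so that its value does not rest on shared sequence of that length.

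HBZ, the embryonic zeta gene, stayed low. It measured 7.03, 10.9 and 7.78 FPKM in CD43+ replicates 1, 2 and 3 and was listed at 0 in the CD31+CD34+ libraries (adjusted p = 1.08e-09, limma). HBM, the mu gene, was the lowest of the 10 members in every CD43+ library, at 3.05, 3.39 and 2.72 FPKM, and was listed at 0 in all 9 other libraries (adjusted p = 1.07e-09, limma). HBZ shares 43.6% of its 50-base stretches with the pseudogene HBZP1, which was listed at 0 in all 12 libraries, and HBM shares 23.6% of its stretches with HBZ. The values of HBZ and HBM are uncertain for that reason.

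By their means, the order of levels in CD43+ cells was HBG2, HBE1, HBD, HBG1, HBA2, HBQ1, HBB, HBZ, HBA1 and HBM. The ranges of the 3 libraries overlapped for HBG1 and HBA2, for HBB and HBZ, and for HBZ and HBA1, and the other neighbours in this order stood apart. HBG2, HBE1 and HBD kept the first 3 places in each library. Of the 10 members, 8 were highest in CD43+ replicate 2, and the other 2, HBG1 and HBA1, were lowest there. The 10 genes together held 0.303%, 0.471% and 0.427% of the FPKM outside small RNA genes in CD43+ replicates 1, 2 and 3.

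The embryonic and fetal genes dominated the beta-like cluster in CD43+ cells. Of the summed beta-like FPKM, the fetal genes HBG1 and HBG2 held 64.8% ± 1.0 (SD, n = 3), the embryonic gene HBE1 24.9% ± 0.77 (SD, n = 3) and the adult genes HBD and HBB 10.4% ± 0.76 (SD, n = 3). HBB alone held 0.537%, 0.588% and 0.440% in CD43+ replicates 1, 2 and 3, so that the adult share was almost wholly HBD. These shares varied little between the 3 libraries although the beta-like sum itself ranged from 1902 to 2351 FPKM.

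The alpha-like cluster was divided differently. HBA1 and HBA2 together held 50.2% ± 1.2 (SD, n = 3) of its summed FPKM in CD43+ cells, HBQ1 34.05% ± 0.78, the embryonic gene HBZ 11.6% ± 1.8 and HBM 4.15% ± 0.16. By library, HBZ held 9.90%, 13.4% and 11.4%. The embryonic HBE1 exceeded the embryonic HBZ by 68.6, 51.6 and 68.2 times in the 3 CD43+ libraries.

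**Figure D2:**
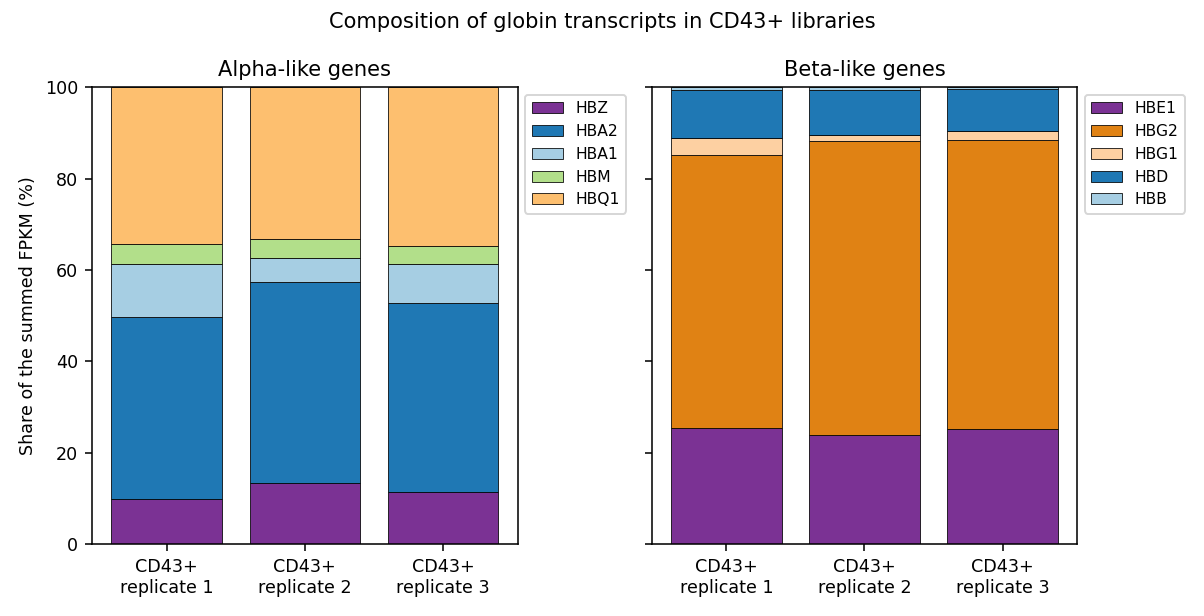
Share of the summed FPKM held by each alpha-like gene (left) and each beta-like gene (right) in CD43+ replicates 1, 2 and 3, in percent of the alpha-like or beta-like sum. HBG2 and HBE1 fill most of each beta-like bar and HBB less than 1% of it, while HBA2 and HBQ1 are the largest pieces of each alpha-like bar.

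In CD31+CD34+ cells the same shares rested on far lower values, and the beta-like shares varied more. The fetal share averaged 75.2% ± 7.8 (SD, n = 3) there and was 10.5 percentage points lower in CD43+ cells. The adult share averaged 5.13% ± 3.5 and was 5.25 points higher in CD43+ cells, and the embryonic share of beta-like FPKM averaged 19.6% ± 4.3. The fetal and adult shares did not overlap between the populations (exact two-sided permutation p = 0.1 each), which is the smallest p that 3 against 3 libraries allow, and the embryonic share overlapped (exact p = 0.2). Adjusted over the 5 comparisons of shares and ratio, these p-values were 0.125, 0.125 and 0.2. The embryonic share of the alpha-like sum rested on HBZ values listed at 0 in CD31+CD34+ cells (exact p = 0.1, adjusted 0.125).

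The alpha-like and beta-like sums were not balanced in CD43+ cells. The alpha-like sum measured 71.0, 81.6 and 68.2 FPKM, and the beta-like sum 1902, 2351 and 2099 FPKM, in CD43+ replicates 1, 2 and 3. The ratio of alpha-like to beta-like FPKM was thus 0.0373, 0.0347 and 0.0325, and the beta-like sum was 26.8, 28.8 and 30.8 times the alpha-like sum. Most 50-base stretches of HBA2 (81.4%), HBA1 (80.7%), HBE1 (76.6%) and HBG2 (56.7%) also occur in other genes. How reads shared between genes were counted is not given, so both sums and the size of this gap are uncertain. In CD31+CD34+ cells the ratio was 0.333, 0.294 and 0.238, where the alpha-like sum was nearly all HBQ1. The ratio was lower in 3 of 3 CD43+ libraries than in any CD31+CD34+ library (exact two-sided permutation p = 0.1, adjusted 0.125). This direction rested on HBQ1. Without HBM and HBQ1, which are not part of the major hemoglobins, the ratio was 0.0229, 0.0217 and 0.0199 in CD43+ cells and 0, 0 and 0.00643 in CD31+CD34+ cells, where HBA2 in replicate 3 was the only one of the other 3 alpha-like genes listed above 0. The difference then turned round, and the mean was 0.0194 higher in CD43+ cells (exact p = 0.1).

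**Figure D3:**
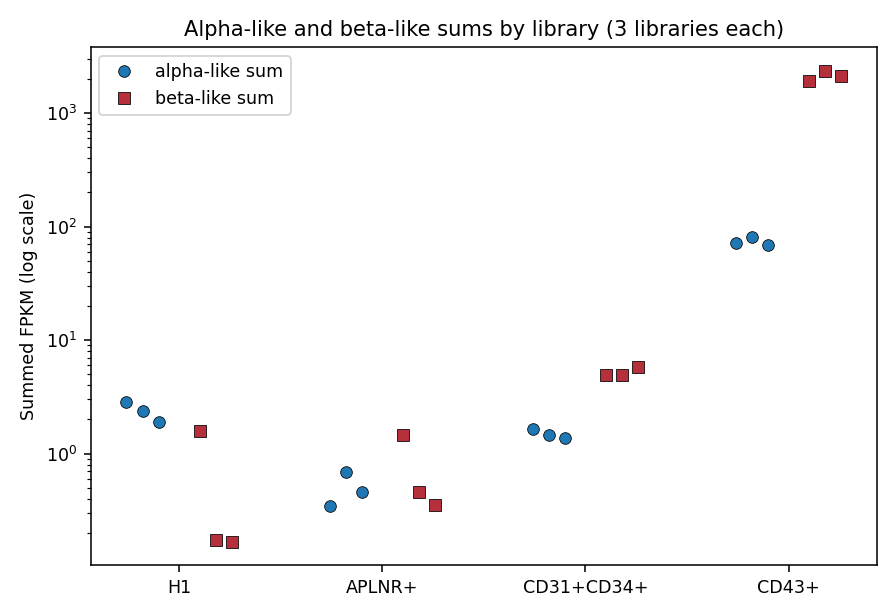
Summed FPKM of the 5 alpha-like genes (circles) and the 5 beta-like genes (squares) in each of the 12 libraries, on a log10 axis. In CD43+ cells the alpha-like sums lie between 68.2 and 81.6 and the beta-like sums between 1902 and 2351, whereas in H1 cells each alpha-like sum lies above the beta-like sum of its library.

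Before the CD43+ stage, the 7 members that entered through the CD43+ libraries alone could not be called. All their values outside CD43+ cells were under 1 FPKM, so with 1 FPKM added none could change 2-fold. From APLNR+ to CD31+CD34+ cells, 1 of 10 members was raised, HBG2, close to the share of 12.5% among all genes tested. HBG2 measured 0.933, 0.426 and 0.271 FPKM in APLNR+ cells, below each CD31+CD34+ library, and rose by 1.65 ± 0.22 on the log2 scale (SE, adjusted p = 2.67e-05, limma). HBE1 and HBQ1 passed the adjusted p, but with 1 FPKM added to each value they did not reach a 2-fold change. The log2 changes were 0.83 ± 0.15 for HBE1 (adjusted p = 0.000364) and 0.75 ± 0.11 for HBQ1 (adjusted p = 6.89e-05, limma). Without the added 1 FPKM, HBE1 averaged 0.146 FPKM in APLNR+ cells and 1.04 FPKM in CD31+CD34+ cells, and HBQ1 averaged 0.469 and 1.47 FPKM. HBE1 measured 0.330, 0.0306 and 0.0793 FPKM in APLNR+ cells. With a pseudocount of 0.1 in place of 1, HBE1, HBQ1 and HBG1 were also raised.

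From H1 to APLNR+ cells, 1 of 10 members was lowered, HBQ1, close to the share of 7.62% among all genes tested. HBQ1 measured 2.67, 2.13 and 1.91 FPKM in H1 cells and 0.344, 0.600 and 0.462 FPKM in APLNR+ cells, with no overlap. It fell by 1.14 ± 0.11 on the log2 scale (SE, adjusted p = 3.65e-06, limma). Over the 4 populations, HBQ1 was thus low in H1 cells, lower in APLNR+ cells, and higher again in CD31+CD34+ cells before it reached its CD43+ level. Between H1 and CD43+ cells, 10 of 10 members were raised, where 14.6% of all genes tested were raised. Here too, the 7 members that entered the test through the CD43+ libraries alone had to differ, and HBE1 needed these libraries to pass the filter.

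In H1 and APLNR+ cells, small beta-like values gathered in replicate 1 of each population. HBG2, HBE1, HBD and HBG1 measured 1.08, 0.327, 0.146 and 0.0281 FPKM in H1 replicate 1, and 0.933, 0.330, 0.136 and 0.0262 FPKM in APLNR+ replicate 1. HBD and HBG1 were listed at 0 in replicates 2 and 3 of both populations. As a percentage of the CD43+ mean, these 4 genes stood at 0.0818%, 0.0622%, 0.0702% and 0.0581% in H1 replicate 1 and at 0.0705%, 0.0627%, 0.0655% and 0.0542% in APLNR+ replicate 1. These 4 genes thus kept nearly the proportions of CD43+ cells in both of these libraries. Other members did not: HBB stood at 0.359% in APLNR+ replicate 1 and at 0 in H1 replicate 1, HBA2 stood at 0.550% in H1 replicate 1 and 0.769% in H1 replicate 2, and HBQ1 was higher in all H1 and APLNR+ libraries. Both of these libraries are shallower than the others of their populations, and the part of depth in these values was not tested. In CD31+CD34+ replicate 1 the same genes stood at 0.282%, 0.155%, 0.0526% and 0.508%, with no such common level.

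With replicates 2 and 3 alone, an alternative chosen after seeing the data, the 10 members were still raised in CD43+ cells against both CD31+CD34+ and H1 cells. The same 7 members had to differ, and HBE1 had needed the CD43+ libraries to pass the filter. From APLNR+ to CD31+CD34+ cells, HBE1 joined HBG2 at a log2 change of 1.01 (adjusted p = 0.000292, limma). HBQ1, with a change of -0.98 from H1 to APLNR+ cells (adjusted p = 0.000227, limma), then missed the 2-fold limit on the log2(FPKM + 1) scale.

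Among 26 genes known to regulate globin genes and erythroid cells, 22 were tested and 5 were raised from CD31+CD34+ to CD43+ cells, with none lowered. Of all genes tested, 5.58% were raised and 8.79% lowered. The median log2 change of the 22 was 0.12, near that of all genes at -0.00. GATA1, the erythroid and megakaryocytic master factor, measured 48.8, 65.2 and 54.2 FPKM in CD43+ cells and 1.34, 2.30 and 1.84 FPKM in CD31+CD34+ cells, and rose by 4.34 ± 0.13 on the log2 scale (adjusted p = 2.28e-10, limma). NFE2, which binds the distant globin enhancers, rose by 3.88 ± 0.14 (adjusted p = 6.56e-10), and MYB, a factor of progenitor proliferation, by 2.54 ± 0.18 (adjusted p = 2.47e-07). KLF1, which activates HBB in adult cells, measured 50.5, 60.1 and 48.3 FPKM in CD43+ cells and rose by 1.41 ± 0.12 (adjusted p = 8.29e-07, limma). It had risen before, by 2.99 ± 0.12 from APLNR+ to CD31+CD34+ cells (adjusted p = 7.88e-10, limma). GFI1B, a repressor that erythroid and megakaryocytic cells need, rose by 1.34 ± 0.16 (adjusted p = 2.47e-05, limma).

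Other regulators of the list were not called. BCL11A, which silences the gamma genes in adult cells, measured 0.616, 0.622 and 2.12 FPKM in CD43+ cells, and its log2 change of 0.67 ± 0.27 did not pass (adjusted p = 0.0560, limma). In H1 cells BCL11A averaged 4.62 FPKM ± 1.4 (SD, n = 3). ZBTB7A, another repressor of the gamma genes, averaged 1.99 FPKM ± 0.42 in CD43+ cells with a log2 change of -0.30 ± 0.13 (adjusted p = 0.0715, limma). LIN28B, which is linked to the fetal program, averaged 13.0 FPKM ± 3.5 with a log2 change of -0.30 ± 0.17 (adjusted p = 0.156, limma). SOX6, NFIA, NFIX and NR2F2 stayed under 1 FPKM in all CD43+ libraries.

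Of 20 genes of hemoglobin assembly and heme supply, all tested, 5 were raised in CD43+ cells against CD31+CD34+ cells and none was lowered. Their median log2 change was 0.63. Among all genes tested, 5.58% were raised and 8.79% lowered. ALAS2, the erythroid form of the first enzyme of heme synthesis, measured 48.9, 65.2 and 69.03 FPKM in CD43+ cells and at most 1.59 FPKM in the other libraries, and rose by 5.07 ± 0.15 (adjusted p = 1.45e-10, limma). TFRC, the transferrin receptor that brings iron into the cell, rose by 1.72 ± 0.10 (adjusted p = 4.59e-08), UROS by 1.36 ± 0.09 (adjusted p = 1.59e-07) and FECH by 1.06 ± 0.14 (adjusted p = 5.85e-05, limma), the last being the enzyme that inserts iron. AHSP, the chaperone of free alpha chains, measured 1.59, 1.76 and 2.04 FPKM in CD43+ cells and 0.120, 0 and 0 FPKM in CD31+CD34+ cells (adjusted p = 0.00331, limma). In H1 cells AHSP measured 7.36, 3.50 and 3.43 FPKM, above each CD43+ library. TFRC was also higher in H1 cells, with a mean of 41.2 FPKM against 25.7 FPKM in CD43+ cells, after a fall by 2.51 ± 0.10 on the log2 scale from APLNR+ to CD31+CD34+ cells (adjusted p = 1.16e-09, limma).

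Of 11 listed neighbours of the alpha cluster, 9 were tested, none was raised and 2 were lowered between CD31+CD34+ and CD43+ cells, where 5.58% of all genes tested were raised and 8.79% lowered. RHBDF1 fell by 2.01 ± 0.12 on the log2 scale (adjusted p = 3.88e-08) and ARHGDIG by 1.10 ± 0.12 (adjusted p = 7.45e-06, limma). NPRL3, whose introns hold the alpha enhancers, averaged 6.86 FPKM ± 0.50 in CD43+ cells with a log2 change of 0.33 ± 0.11 (adjusted p = 0.0195, limma). LUC7L, POLR3K and SNRNP25 likewise passed the adjusted p under the 2-fold limit, with log2 changes of 0.54 ± 0.10, 0.45 ± 0.10 and 0.39 ± 0.12. Of 18 neighbours of the beta cluster, 12 stayed under 1 FPKM in all CD43+ libraries, among them the olfactory receptor gene OR51B5, which overlaps the HBE1 and HBG2 models. The other 6 were tested, and none was called. Of the other globin genes, MB, NGB and ADGB were listed at 0 in the 3 CD43+ libraries, and CYGB, the cytoglobin gene, averaged 2.69 FPKM ± 0.31 (SD, n = 3).

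**Figure D4:**
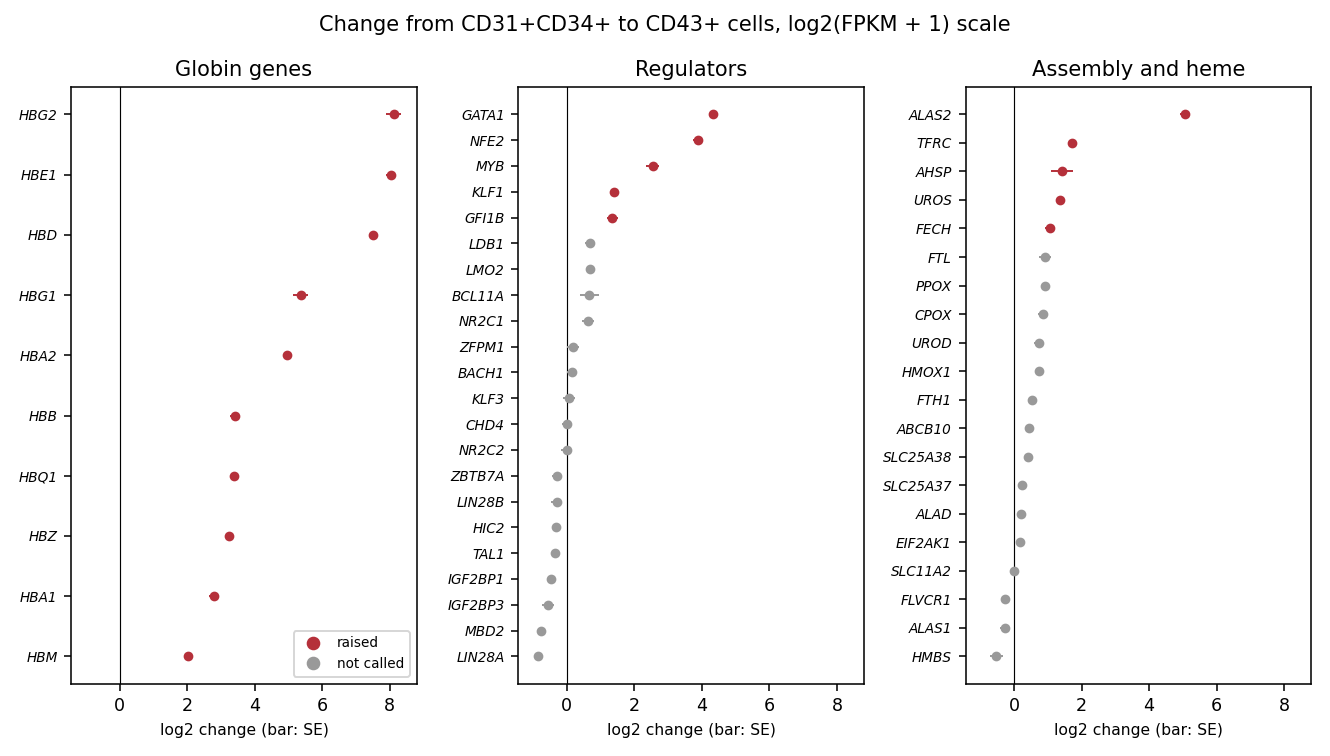
Log2 change from CD31+CD34+ to CD43+ cells with its SE (horizontal bars) on the log2(FPKM + 1) scale for the globin genes, their regulators, and genes of hemoglobin assembly and heme supply that entered the test; red marks genes raised 2-fold or more with an adjusted p below 0.05. All 10 globin genes are red, against 5 of 22 regulators, 5 of 20 assembly and heme genes and 5.58% of all genes tested. HBZ, HBA1 and HBM were listed at 0 in CD31+CD34+ cells, so their position depends on the pseudocount.

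Markers of several blood lineages were also higher in the same CD43+ libraries, and some of them, like 7 of the globin genes, entered the test through the CD43+ libraries alone and so had to differ. These were 2 of the red cell surface genes tested, 4 of the megakaryocyte genes, 3 of the myeloid genes and 2 of the lymphoid genes, among them ITGB3, SPI1, CD7 and NKG7. Of 17 genes of the red cell membrane and erythroid surface, 12 were tested and 5 were raised, where 5.58% of all genes tested were raised. GYPB and GYPE, both of the glycophorin family, rose by 3.73 ± 0.35 and 2.89 ± 0.12 on the log2 scale (adjusted p = 2.35e-06 and 2.23e-09, limma). The sum of these 17 ranged from 136 to 163 FPKM in CD31+CD34+ cells and from 288 to 348 FPKM in CD43+ cells. SLC4A1 and XK, genes of the mature red cell membrane, and TSPO2 stayed under 1 FPKM in all CD43+ libraries, and TSPO2 was listed at 0 there.

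Of 10 megakaryocyte genes, 9 were tested and 7 were raised, where 5.58% of all genes tested were raised and 8.79% lowered. The sum of the 10 went from between 23.3 and 30.1 FPKM in CD31+CD34+ cells to between 738 and 799.8 FPKM in CD43+ cells. ITGB3, ITGA2B and PF4 changed most, by 5.85 ± 0.10, 5.82 ± 0.20 and 4.64 ± 0.15 on the log2 scale (adjusted p = 4.17e-12, 6.56e-10 and 3.92e-10, limma). Of 12 myeloid genes 5 were tested and raised, with the largest log2 changes in SPI1, LYZ and CD33. The list summed to between 48.7 and 54.5 FPKM in CD43+ cells. In the myeloid list MPO, ELANE, PRTN3, AZU1, CD14, CEBPA and ITGAM stayed under 1 FPKM in CD43+ cells. Of 8 lymphoid genes 3 were tested and 2, CD7 and NKG7, were raised, and the list summed to between 7.75 and 8.26 FPKM, with MS4A1 at 0. Of 8 endothelial genes, 5 were lowered and 1, CLDN5, was raised. The list summed to between 1555 and 1751 FPKM in CD31+CD34+ cells and between 535 and 656 FPKM in CD43+ cells. Of 7 pluripotency genes, 4 were lowered. That list summed to between 324 and 405 FPKM in CD31+CD34+ cells and between 151 and 178 FPKM in CD43+ cells. LIN28A made up most of the latter, at 108, 120 and 127 FPKM in CD43+ replicates 1, 2 and 3. SOX2 and TDGF1 stayed under 1 FPKM in all CD43+ libraries. The part of each lineage in the globin values was not tested.

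The genes whose pattern over the 12 libraries was most like that of the summed globin FPKM included genes of platelets and myeloid cells. Among 5230 genes that passed the filter and averaged at least 10 FPKM in CD43+ cells, 242 had a Pearson r of at least 0.9 with the globin sum and 17 an r of at least 0.99, on log2(FPKM + 1). The 8 highest were TNFAIP8L2 (r = 0.996), HCST (r = 0.994), MMRN1 (r = 0.994), DLK1 (r = 0.993), PTPN6 (r = 0.993), GP9 (r = 0.993), TREML2 (r = 0.993) and SPI1 (r = 0.993). These values are a description, since the 12 points fall into 4 populations and a gene that is high in CD43+ cells alone will have a high r. DLK1, a transmembrane protein of the Notch ligand family, averaged 104 FPKM ± 8.1 (SD, n = 3) in CD43+ cells, MMRN1 and GP9, both of platelets, 14.4 ± 1.5 and 10.98 ± 2.6, and PTPN6, a phosphatase of blood cells, 50.1 ± 5.1.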

How the data were processed

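RNA-seq was performed on 12 samples: undifferentiated H1 cells and APLNR+, CD31+CD34+ and CD43+ cells derived from them, 3 libraries each, grouped and numbered by the sample titles. Per the labels, RNA was isolated with Trizol, and an Illumina TruSeq kit was used for the libraries. The authors deposited 1 table, which gives FPKM by gene symbol in each library. The submitters' processing notes name BWA, Bowtie, RSEM and hg19, with no versions or roles, and the annotation is not given in the sources used here. FPKM values hold no read counts, so no count model was run, and no gene coordinates are given beyond the RefSeq promoters. Repeated symbols were reduced to their line of highest mean (56593 symbols). The 10 members each stood on 1 line.

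Values were transformed as log2(FPKM + 1), and 14840 genes with at least 1 FPKM in at least 3 libraries were kept. All 4 populations entered 1 model in limma 3.58.1 under R 4.3.3 (eBayes with trend, no covariate), with Benjamini-Hochberg adjustment over all 14840 genes. Calls required 2-fold or more on the log2(FPKM + 1) scale and an adjusted p below 0.05. The fit was tested on simulated data. Shares and ratios were computed within each library and compared by an exact two-sided permutation of 6 libraries, which cannot give a p under 0.1. Shared sequence was counted as 50-base stretches of GENCODE release 29 transcripts. The genes, lists and tests were chosen with earlier results of these data known. Named genes were the 10 members, a preset set of regulators, heme genes and neighbours, up to 3 more called genes per list with the largest change, and the 8 genes most alike in pattern. CLDN5, CYGB, LUC7L, POLR3K, SNRNP25 and the genes given as under 1 FPKM or at 0 were named after their values were seen, and some list genes are not reported here. Alternatives were another pseudocount, other filters and scalings, the libraries left out in turn, a replicate block, near-identical genes summed and, after seeing the data, replicates 2 and 3 alone.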

Additional observations from a re-analysis of the deposited data

How the results depend on the processing

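The counts of globin genes called were 10 (CD43+ against CD31+CD34+), 1 (CD31+CD34+ against APLNR+), 1 (APLNR+ against H1) and 10 (CD43+ against H1). In both comparisons with CD43+ cells, 7 of the 10 members had entered through the CD43+ libraries alone and so had to differ. HBE1 too had needed these libraries to pass the filter. Of 100 recomputed counts, 94 stayed within 1.5 times of the main counts, and no member reversed its direction. A filter on a mean of at least 5 FPKM left 6 members in the test and called 6 in both comparisons with CD43+ cells. From APLNR+ to CD31+CD34+ cells the count was 4 with a pseudocount of 0.1 and 3 with no minimum change. It was 2 with replicates 2 and 3 alone, a choice made after seeing the data. That choice also gave 0 from H1 to APLNR+ cells by limma. There HBQ1 had an adjusted p of 0.000227 and missed the 2-fold limit on the log2(FPKM + 1) scale. With each library left out in turn the counts were unchanged. Scaling without small RNA genes moved the median log2 change of all genes from H1 to APLNR+ cells from -0.12 to 0.03, and HBQ1 from -1.14 to -1.03. A pseudocount of 0.1 enlarged the log2 change from CD31+CD34+ to CD43+ cells of HBA2 from 4.96 to 8.11 and of HBB from 3.41 to 5.93. Without HBM and HBQ1 the alpha-like to beta-like ratio was 0.0215 in CD43+ cells and the embryonic share of the alpha-like sum 18.7%, and the difference in ratio between CD43+ and CD31+CD34+ cells reversed from -0.254 to 0.0194, since HBQ1 made up nearly all of the alpha-like sum in CD31+CD34+ cells. The other 48 recomputed differences in ratio or share kept their direction. The other 38 recomputed ratios and shares moved by less than the spread between replicates.

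Replicate numbers were not shown to pair the libraries: deviations of same-numbered libraries correlated between -0.0214 and 0.429, over 0.1 in 12 of 18 pairs, and 7 of 12 libraries correlated best with one of their own number. With a replicate block the counts were 10, 1, 1 and 10, and no call of a member changed. The precision is limited by 3 libraries per population and by values near 0 before the CD43+ stage.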
